A study of Mus musculus with 4 samples.

Results

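Eif1, Eif5, Eif2s3x and Rps3 are 4 genes of the machinery that surrounds the translation initiation factor eIF1A. They were taken by gene symbol from a table of 4878 genes, all 4 were present, and all 4 passed the filter on low values that left 4605 genes for testing. The cells were mouse embryonic fibroblasts (MEFs), primary cells grown from embryos, at passages 5 to 8. One group of 2 libraries was transfected with Si-Negative control, a negative control siRNA, and the other group of 2 libraries with an siRNA against eIF1A labelled Si-eIF1A (X+18). Both groups received their siRNA with the same lipid reagent, Lipofectamine RNAimax. No strain, genotype, sex, siRNA dose or time after transfection is given in the sources used here. RNA was measured by bulk MARS-seq, which reads the 3′ ends of polyadenylated RNA, and values are the deposited normalised counts, that is, reads divided by a single factor for each library. The title of the series names cancer-associated forms of eIF1A and the binding of Rps3 and Rps10. The comparison asks how the mRNAs of eIF1A's partners differ when eIF1A is knocked down.

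Start codon selection depends on these partners. The small ribosomal subunit binds eIF1, eIF1A, eIF3, eIF5 and a complex of eIF2, GTP and the initiator tRNA, is loaded near the cap of an mRNA, and scans towards the start codon. While it scans, eIF1 and eIF1A hold it in an open state; when the start codon pairs with the initiator tRNA, eIF1 leaves, and eIF5, which stimulates GTP hydrolysis by eIF2, takes part in closing the complex. Eif2s3x encodes the gamma subunit of eIF2, which carries the GTP and the initiator tRNA. Rps3 encodes uS3, a protein of the small subunit that lines the channel through which mRNA enters. The surroundings of a start codon affect how readily it is recognised, and a purine 3 bases before it and a G directly after it favour recognition.

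The start codons of the 4 mRNAs themselves are shown because they are what these factors read, and because they differ between the 4 genes. Each line gives 20 bases of a principal GENCODE M21 transcript on its own strand, beginning 12 bases before the start codon. Capitals mark the base at position -3, the start codon, and the base at position 4, counted from the A of the start codon as position 1.
Eif1: gaatcgtatCgtATGTccgc
Eif5: taataagccAaaATGTctgt
Eif2s3x: tctccgagcAagATGGctgg
Rps3: cgcggctgcAagATGGcggt
Eif2s3x and Rps3 had both favourable bases, Eif5 had the purine only, and Eif1 had neither. Among 15080 mouse genes with a principal transcript read the same way, 42.3% had both, 85.9% had the purine, and 6.35% had neither. The Eif5 leader, read from the longest of 3 principal transcripts, was 626 bases long and held 5 upstream ATG triplets. Of these, 3 opened reading frames that closed before the main start codon. Leaders of the other principal Eif5 transcripts were not examined. The leaders of Eif1, Eif2s3x and Rps3 were 245, 76 and 117 bases long and held 1 upstream ATG each, and that of Eif1 opened a frame that closed before the start. At least 1 upstream ATG was present in 54.3% of the 15080 transcripts. Weak start contexts of eIF1 mRNAs and upstream frames of eIF5 mRNAs are known as means by which these factors limit their own translation; translation was not measured here.

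In knockdown libraries 3 of the 4 mRNAs rose: Eif1 by 2.05-fold, Eif5 by 3.75-fold and Eif2s3x by 3.28-fold. Rps3 had a fitted difference of 2.02-fold that did not pass the test. The test was limma's moderated test over all 4605 genes with Benjamini-Hochberg adjustment, and a gene was called at an adjusted p under 0.05. Over all tested genes limma called 37.5%, of which the higher calls were 15.9% of tested genes and the lower calls 21.6%, so 3 higher calls of 4 stand beside a large general share. The 4 genes and the lists below were chosen with earlier results of these data known. Shares set beside those of all genes are therefore descriptions and not independent tests. The edgeR test on recovered reads called 37.3% (17.5% higher, 19.7% lower) and DESeq2 33.4% (14.3% higher, 19.1% lower), and both also called Eif1, Eif5 and Eif2s3x. Groups that do not overlap are common with 2 libraries each: 67.8% of tested genes had none (32.4% with the knockdown higher, 35.5% with it lower). Scaling mattered for the split of all calls, which was 733 higher to 996 lower as deposited and 1299 higher to 603 lower at equal library totals. That scaling raised the median gene to 0.34 on the log2 scale. Relative to that median the changes of Eif1, Eif5, Eif2s3x and Rps3 were then 1.05, 1.90, 1.71 and 1.03 on the log2 scale. Folds between groups from limma were computed after adding 1 to each normalised count unless another setting is named, which understates changes of low genes, whereas ratios between replicates are plain ratios. Errors after ± are SDs of n = 2 libraries unless a standard error is named. Whether replicate libraries stem from different cultures is not stated. A p-value here therefore refers only to the scatter among these 4 libraries, which may be technical.

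**Figure D1:**
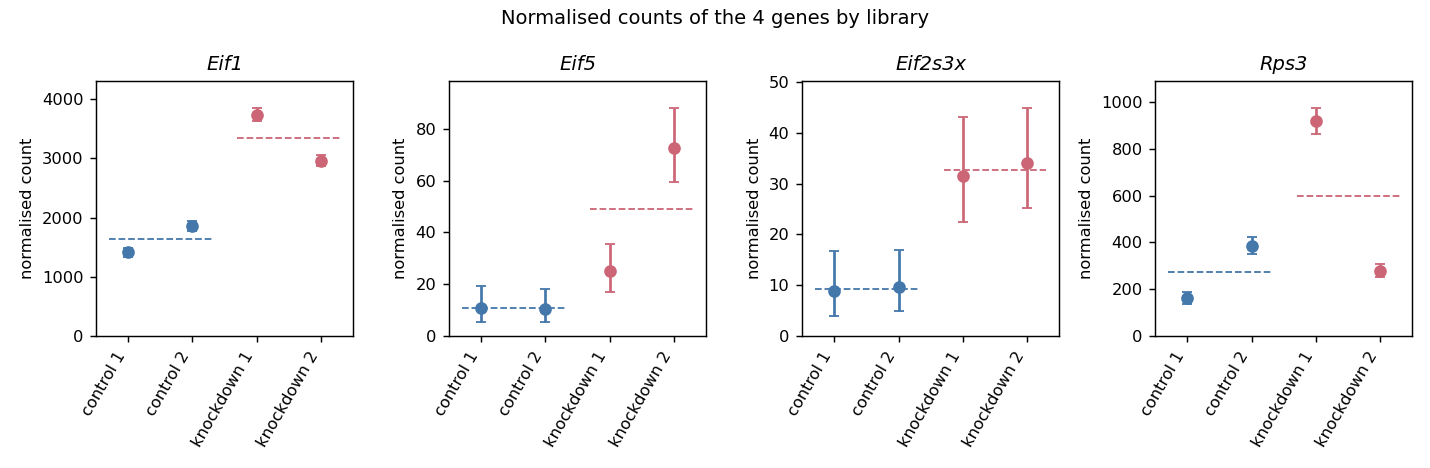
Normalised counts (linear axes from 0) of Eif1, Eif5, Eif2s3x and Rps3 in the 2 control and 2 knockdown libraries. Points are libraries, bars are exact 95% counting intervals, and dashed lines are group means; both knockdown libraries lie above both controls in Eif1, Eif5 and Eif2s3x, whereas in Rps3 knockdown 2 (278) lies below control 2 (386).

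The libraries held 2152331 to 2595625 reads in the genes analysed. Of 15 fibroblast markers, 5 were among these genes. Vimentin mRNA (Vim), an intermediate filament of mesenchymal cells, was high in both groups at 17834 and 9471 mean normalised counts. Vim, Col5a1 and S100a4 were called lower in knockdown libraries, beside 21.6% of all tested genes. The other 2, Fn1 and Prrx1, were at 0.95-fold and 0.93-fold with overlapping groups and did not pass (limma, adjusted p = 0.845 and 0.820). Of the markers of epithelial, endothelial, blood and muscle cells, none was among the genes analysed. Of 5 neural markers, Map2 and Nes were, and Nes was called lower. The 5 fibroblast markers together took 0.858% to 1.11% of reads in controls and 0.586% to 0.803% in knockdowns, and their part in the results below was not tested. In bulk RNA, fewer cells of a type and less RNA per cell cannot be told apart. Rps10, Eif1a and Eif1ax were not analysed here, so the depth of the knockdown was not checked.

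Eif1, whose product keeps the scanning complex open and rejects poor start codons, was the member measured with the most reads (mm10 chromosome 11, 100319885 to 100322096, plus strand). Its normalised counts were 1412 and 1858 in controls 1 and 2 and 3733 and 2962 in knockdowns 1 and 2, from 1435, 2289, 4625 and 4361 reads. The groups did not overlap, and the lower knockdown library stood well above the higher control. The log2 fold change was 1.04 with a standard error of 0.23 (limma, adjusted p = 0.0014; 95% interval 1.48-fold to 2.85-fold). Replicates differed by more than counting error, with ratios of 1.32 between controls (95% interval 1.23 to 1.41) and 1.26 between knockdowns (1.21 to 1.31), yet by less than the difference between the groups. The call was kept in all 16 other settings tried, with folds of 1.79 to 2.82. Eif1 has many near copies: 20 other annotated genes carried a stretch of at least 300 bases with at least 90% identity to its mRNA, 19 of them pseudogenes and the other Emd, a gene that is also in the table. How the authors assigned reads shared with copies is not given, so the level of Eif1 is uncertain to that extent.

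Eif2s3x encodes the subunit of eIF2 that binds GTP and the initiator tRNA (chromosome X, 94188707 to 94212862, minus strand). It was a low-count gene, with 9 and 12 reads in the controls and 39 and 50 in the knockdowns. These reads correspond to normalised counts of 8.86 and 9.74 in controls 1 and 2 and of 31.5 and 34.0 in knockdowns 1 and 2. The exact 95% counting intervals, which cover counting error only, reached up to 16.8 and 17.0 in the controls and down to 22.4 and 25.2 in the knockdowns. The groups did not overlap, and the libraries of each group were close together: the ratio between replicates was 1.10 in controls (95% counting interval 0.425 to 2.95) and 1.08 in knockdowns (0.696 to 1.68), both within counting error. Its within-group SD of 0.08 on the log2 scale was larger than that of only 8.43% of tested genes. The log2 fold change was 1.71 with a standard error of 0.47 (limma, adjusted p = 0.0072). Without knockdown replicate 1 or 2 the fold stayed at 3.40 and 3.16 but the adjusted p was 0.0556 and 0.0743. Annotated pseudogenes, Eif2s3x-ps1 and Gm2223, share long stretches with its mRNA, Gm2223 at 100% identity over 1350 bases.

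The promoters were searched because 3 members moved in the same direction. In the 250 bases before each RefSeq start site (build GRCm38.p6), 11 motifs were sought on both strands: the ATF4 composite element (TGATGNAA), the cAMP response element (TGACGTCA), its core (TGACG, contained in the former), the E-box (CACGTG), the TATA motif (TATAA), the CCAAT box, an ETS motif (CCGGAAG) and a second form of it (ACTTCCG), the NRF1 motif, the GC box (GGGCGG) and the YY1 motif (AAGATGGC). The annotations place the starts differently: the RefSeq start lay 64, 85, 58 and 29 bases downstream of the start of the principal GENCODE transcript for Eif1, Eif5, Eif2s3x and Rps3, so part of each window is transcribed sequence by GENCODE. The ATF4 composite element had a match in Eif2s3x, from 96 to 89 bases before the RefSeq start, and none in the other 3 windows. That match lay 38 to 31 bases before the principal GENCODE start (94212709), but inside the gene's GENCODE coordinates, whose outer end comes from a longer non-coding transcript, and in no annotated exon of Eif2s3x. Of 32851 such windows, 3.45% hold a match. The stretch is shown on the strand of the gene, chrX:94212730-94212757, minus strand, with the match in capitals, which is the element read on the opposite strand.
Eif2s3x: tcgccatcatTTTCATCAggtctatgcc
The GC box matched in Eif1, Eif5 and Eif2s3x (32.7% of all windows hold it). The cAMP element core (17.8%), the CCAAT box (33.8%) and the NRF1 motif (3.74%) matched in Eif1, and none of the 11 matched in Rps3. Of the 11, only the GC box matched in all 3 genes that rose, and 1 match in each of these genes lay past the principal GENCODE start, in Eif2s3x its GC box.

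Eif5, whose product stimulates GTP hydrolysis by eIF2 and so commits the complex to a start codon, had few reads in controls (chromosome 12, 111538016 to 111546752, plus strand). Its normalised counts were 10.8 and 10.6 in controls 1 and 2 and 25.0 and 72.7 in knockdowns 1 and 2, from 11, 13, 31 and 107 reads. The controls were nearly equal, both knockdowns were higher, and knockdown 2 was far above knockdown 1. The ratio between the knockdown libraries was 2.90 (95% counting interval 1.93 to 4.48), beyond counting error. The log2 fold change was 1.91 with a standard error of 0.50 (limma, adjusted p = 0.0052). The size rests on knockdown replicate 2: leaving that library out gave 2.23-fold and no call (adjusted p = 0.247), and leaving out knockdown replicate 1 gave 6.30-fold. Summed reads gave a ratio of 4.77 (95% counting interval 3.08 to 7.70), an interval that leaves out the difference between the knockdown libraries. For Eif5, 4 pseudogenes met the same criteria as for Eif1, at identities of 90.5% to 91.9%.

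Rps3, the mRNA of the ribosomal protein uS3 that contacts mRNA at the entry channel, was the most variable member (chromosome 7, 99477896 to 99483738, minus strand). Its normalised counts were 161 and 386 in controls 1 and 2 and 917 and 278 in knockdowns 1 and 2, from 164, 476, 1136 and 409 reads. The groups overlapped, since knockdown 2 was below control 2. Replicates differed by 2.39-fold in controls (95% counting interval 2.00 to 2.88) and 3.30-fold in knockdowns (2.95 to 3.70), each more than the fitted 2.02-fold difference between the groups. The log2 difference was 1.01 with a standard error of 0.41, and the adjusted p was 0.0565 with limma. Single libraries decided the value. Leaving out control replicate 1 gave 1.31-fold and leaving out knockdown replicate 1 gave 1.11-fold. Leaving out control replicate 2 gave 3.12-fold and leaving out knockdown replicate 2 gave 3.66-fold. Each of these fits left 1 library in a group, so only the folds are given. The call of Rps3 turned on the method, being made by edgeR (adjusted p = 0.0375) and not by DESeq2 (0.395) on the recovered reads. The annotation holds 1 near copy of Rps3, a pseudogene with 95.8% identity over 570 bases. No exon of another gene lay within the last 1000 bases of any of the 4 genes.

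**Figure D2:**
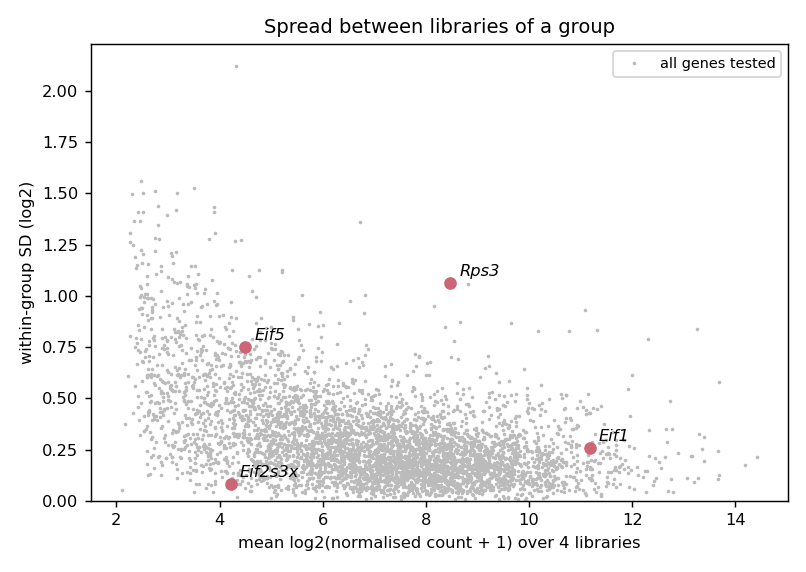
Within-group SD (log2, vertical axis) against mean log2(normalised count + 1) over 4 libraries (horizontal axis), with a grey point for each of the 4605 genes tested and red points for the 4 genes. Rps3 has an SD of 1.06, larger than that of 98.7% of tested genes, whereas Eif2s3x, with far fewer reads, has 0.08.

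**Figure D3:**
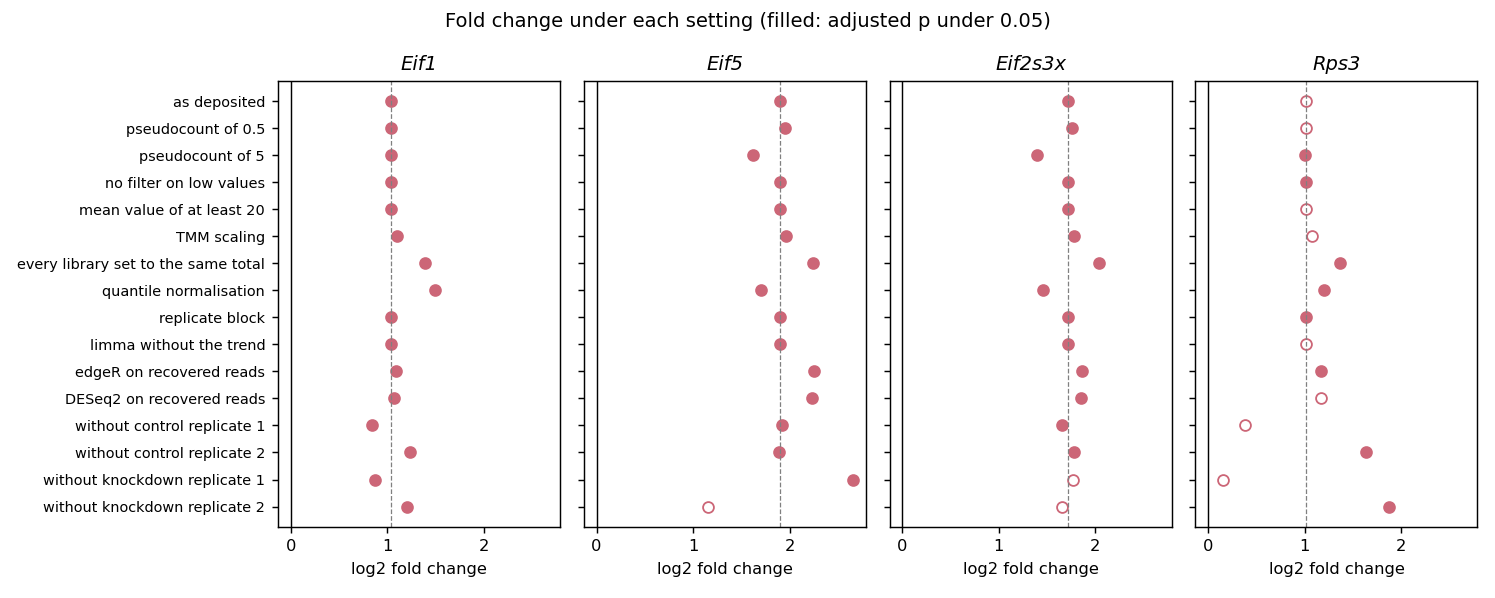
Log2 fold change (horizontal axis, zero line in black, dashed line at the reported value) of the 4 genes with the values as deposited and under 15 other settings, with filled points where the adjusted p was under 0.05. Eif1 is filled throughout, Eif5 is open without knockdown replicate 2, Eif2s3x without either knockdown replicate, and Rps3 runs from 0.15 to 1.87.

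Genes were also compared within each library, as log2 ratios with 1 added to each normalised count. This removes nearly all effect of library scaling, except for values near the added 1. The log2 ratio of Eif5 to Eif1, factors that act in opposite directions at the start codon, was −6.90 and −7.33 in controls 1 and 2 and −7.16 and −5.33 in knockdowns 1 and 2. Only knockdown 2 stood outside the controls, and the mean difference of 0.87 did not pass (two-sided exact permutation test over libraries, p = 0.667; with 2 libraries against 2 the smallest possible p is 0.333). Without knockdown replicate 2 it was −0.05. For Eif2s3x the other eIF2 subunit analysed was Eif2s2, the beta subunit, with normalised counts of 0.984 and 5.68 in controls and 6.46 and 9.51 in knockdowns. Eif2s2 did not pass (limma, adjusted p = 0.244), and the log2 ratio of Eif2s3x to Eif2s2 ranged from 0.68 to 2.31 in controls and 1.73 to 2.12 in knockdowns (exact permutation test, p = 1). That difference of 0.43 became −0.38 without control replicate 2. Eif2s2 had only 1 read in control 1, and with other pseudocounts the difference ran from 0.30 to 0.71.

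For Rps3 the comparison was with the mean log2 level of the 7 other small subunit genes analysed. That ratio was −1.06 and −0.55 in controls 1 and 2 and −0.10 and −1.39 in knockdowns 1 and 2, so the knockdown libraries lay on either side of the controls. The mean difference was 0.06 (exact permutation test, p = 1). Its sign turned without control replicate 1 (−0.19) and without knockdown replicate 1 (−0.58).

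The rest of the small subunit was covered in part: 8 of 36 listed names, some of them alternative symbols of a gene, were in the table, and all 8 were tested. Apart from Rps3, 5 of 7 were called higher and 0 lower, beside 15.9% and 21.6% of all tested genes; their median log2 fold change was 1.01, beside −0.01 over all genes tested. Rps24 went from 190 ± 49 to 450 ± 32.4 normalised counts (2.40-fold, limma adjusted p = 3.75e-04). Rps6, the small subunit protein phosphorylated by S6 kinases, went from 120 ± 43.4 to 294 ± 87.9 (2.46-fold). Rps27a, which encodes a ribosomal protein fused to ubiquitin, rose 2.46-fold and Rps27l, a relative of Rps27, 2.01-fold. Rps3a1 rose 1.91-fold, but its groups overlapped (189 and 433 in controls, 699 and 428 in knockdowns). Calls were lost without control replicate 1 for Rps3a1 (1.26-fold, adjusted p = 0.337) and without knockdown replicate 1 for Rps3a1 (1.49-fold, 0.163) and Rps27l (1.58-fold, 0.140), and Rps3a1 was not called by DESeq2 (0.341). The list had fewer calls without knockdown replicate 1. Limma without its trend called 2 of the 8, losing Rps27a (0.0558), Rps27l (0.0573) and Rps3a1 (0.177). In that setting 501 of the 4605 tested genes were called higher, against 733 with the trend. Rps9 and Gnb2l1, the scaffold RACK1 that binds next to uS3, did not pass at 1.59-fold and 1.15-fold (adjusted p = 0.0586 and 0.644).

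The order of libraries within groups was shared by most of these genes. Control 2 was above control 1 and knockdown 1 above knockdown 2 in 7 of the 8 small subunit genes, Rps3 included, against 22.9% of all genes tested; the exception was Rps27a, with 288 and 406 in knockdowns 1 and 2. Reads of the 8 genes together made up 0.545% and 0.934% of reads in controls and 1.49% and 0.922% in knockdowns. Most of these reads were from Gnb2l1, which alone took 0.445% and 0.743% in controls and 1.11% and 0.644% in knockdowns. Without Gnb2l1 the other 7 genes took 0.0995% and 0.191% in controls and 0.372% and 0.278% in knockdowns, so both knockdowns were above both controls. In normalised counts, Rps6, Rps24, Rps27l and Rps27a were higher in knockdown 2 than in control 2, and Rps3, Rps3a1, Rps9 and Gnb2l1 were lower. By share of reads, Rps3 and Gnb2l1 were lower too, but Rps3a1 and Rps9 were higher in knockdown 2. Rps3a1 had 534 reads in control 2 and 630 in knockdown 2, and Rps9 had 3036 and 3555. Control 2 held 2595625 reads in all and knockdown 2 held 2352111. What differed between the libraries of a group is not given in the labels, and its part in the Rps3 result was not tested.

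**Figure D4:**
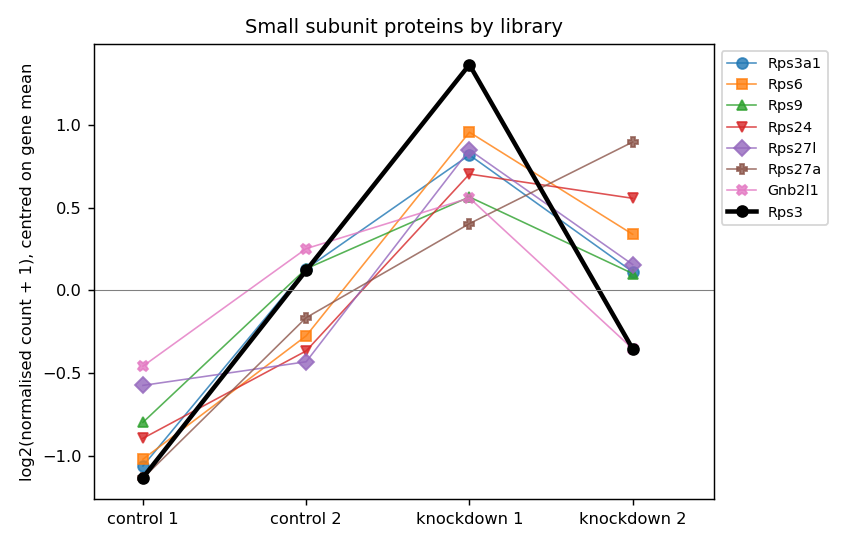
Log2(normalised count + 1) of the 8 small subunit genes, each centred on its own mean over the 4 libraries (vertical axis), by library; lines only join the points of 1 gene. Rps3 (black) is lowest in control 1 and highest in knockdown 1, and in knockdown 2 it falls below its value in control 2, as Rps3a1, Rps9 and Gnb2l1 also do.

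Among initiation factors other than eIF3, 19 of 30 listed genes were in the table and 18 were tested. Limma called 6 of them higher and 0 lower, beside 15.9% higher and 21.6% lower over all tested genes, and their median log2 fold change was 0.51 beside −0.01. Of the 6, 3 are Eif1, Eif5 and Eif2s3x, and of the other 15 tested, 3 rose. Pabpc1, the cytoplasmic poly(A)-binding protein, went from 986 ± 37.1 to 2203 ± 320 (2.22-fold, limma adjusted p = 3.22e-04). Eif6, which keeps the ribosomal subunits apart, went from 2428 ± 185 to 3882 ± 736 (1.59-fold, adjusted p = 0.0263). Its call was lost without control replicate 1 (adjusted p = 0.137), without knockdown replicate 1 (0.223) and in limma without the trend (0.102). Eif1b, a close relative of Eif1, had 85.6 and 123 normalised counts in controls 1 and 2 and 203 and 140 in knockdowns 1 and 2. Its 1.64-fold rise was borderline (adjusted p = 0.0496) and was lost without control replicate 1 (0.245), without knockdown replicate 1 (0.406), with a pseudocount of 0.5 (0.0501), in limma without the trend (0.137) and in DESeq2 (0.0791). Eif4a1, the cap-complex helicase, and Eif4g1, its scaffold, both named after their values were seen, had folds of 1.45 and 1.39 and were not called (adjusted p = 0.0606 and 0.0990). At equal library totals the list had 12 calls, all higher, a setting in which 1299 of the 4605 tested genes were called higher against 733 as deposited. Which of its members were called changed with the library left out, and not for knockdown replicate 1 alone.

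None of the 7 subunits of eIF3 analysed, of 15 listed names, passed with limma, beside 15.9% higher and 21.6% lower over all tested genes. An unadjusted p under 0.05 was reached by 1 of the 7, and neither edgeR nor DESeq2 called any. The eIF3 complex binds the small subunit and helps recruit mRNA. The median log2 fold change was 0.26, beside −0.01 over all genes tested. Eif3e, with 6.89 and 12.2 normalised counts in controls and 19.4 and 25.8 in knockdowns, had the smallest p (2.29-fold, adjusted p = 0.0781). The more abundant Eif3c and Eif3b had folds of 1.35 and 1.16 (0.127 and 0.465), and Eif3a and Eif3m 1.53 and 1.19 (0.185 and 0.609). At equal library totals, 4 of the 7 were called higher, a setting in which 1299 of the 4605 tested genes were called higher against 733 as deposited. Calls among the 7 also changed when a library was left out.

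Among regulators and assembly factors linked to the scanning complex, 8 of 22 listed genes were in the table, and 7 were tested. Of these, 4 were called higher and 0 lower, beside 15.9% and 21.6% of all tested genes, and the median log2 fold change was 0.99 beside −0.01. This list too was chosen with earlier results of these data known, so the contrast only describes it. The largest changes were in assembly factors of the small subunit: Tsr1, which occupies the factor-binding face of the maturing subunit, had 10.8 and 9.74 normalised counts in controls and 50.0 and 72.7 in knockdowns (5.44-fold, limma adjusted p = 1.52e-04). Ltv1, an assembly factor that binds at uS3 and leaves late, had 16.7 and 14.6 in controls and 64.6 and 72.0 in knockdowns (4.16-fold, adjusted p = 2.79e-04). In both genes every knockdown library was far above every control. Bzw2, an eIF5 mimic that competes with eIF5 for eIF2, rose 2.07-fold (adjusted p = 0.0050). Ddx3x, a helicase for structured leaders, rose 1.98-fold (0.0285), a call lost under quantile normalisation (0.0673), without control replicate 2 (0.0584), and without knockdown replicate 1 (0.0656) or 2 (0.247). Cdc123, the chaperone that assembles eIF2 around its gamma subunit, the product of Eif2s3x, had a fold of 1.45 (0.0914).

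**Figure D5:**
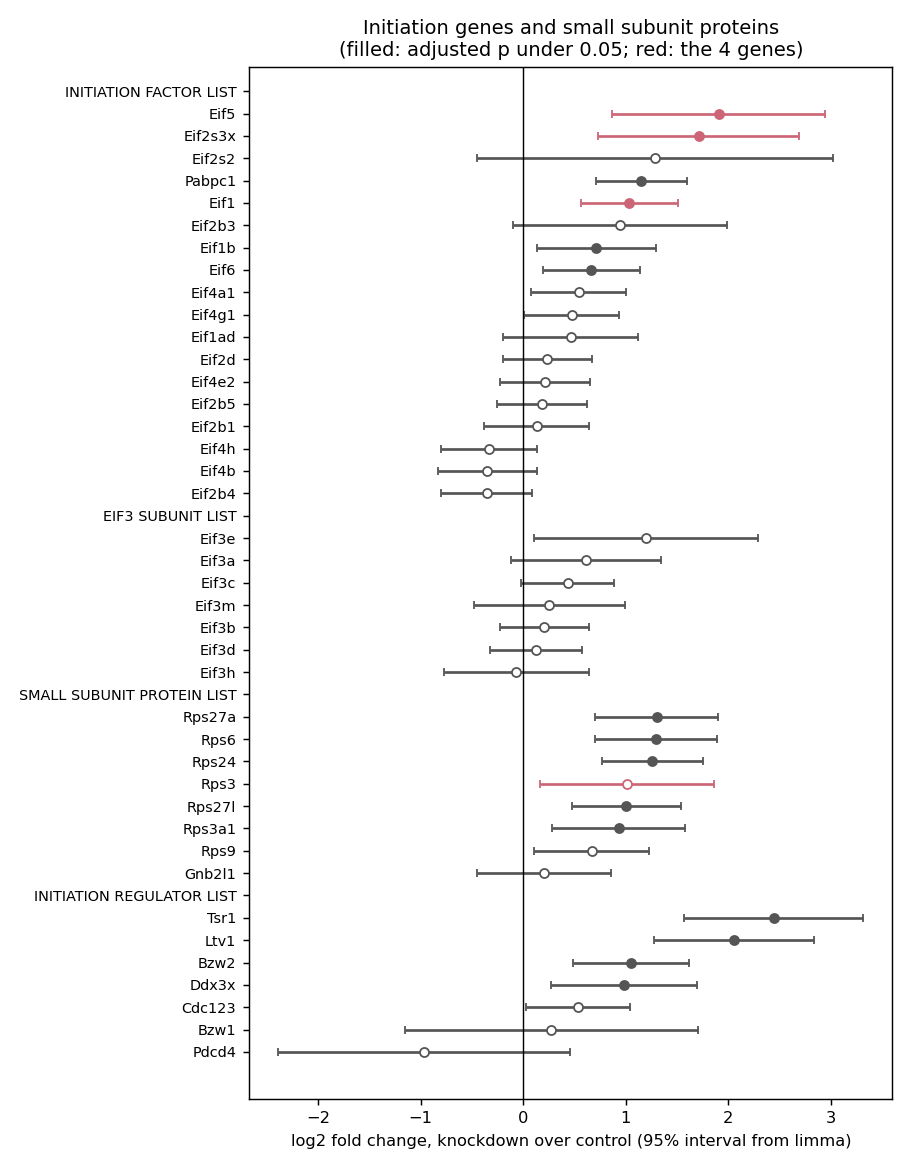
Log2 fold change of knockdown over control with the 95% interval from limma (horizontal axis) for the tested genes of the 4 lists, filled where the adjusted p was under 0.05 and in red for Eif1, Eif5, Eif2s3x and Rps3. All filled points lie right of zero; Eif5 and Eif2s3x have the largest log2 fold changes of the initiation factors, and Rps3 lies among the small subunit proteins with a wider interval.

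The 4 genes did not share 1 pattern over the libraries, as their nearest genes show. Nearness was the Euclidean distance between log2(normalised count + 1) values centred on each gene's mean over the 4 libraries, among tested genes with a mean of at least 20; with 4 libraries it describes a shape and carries no test. Eif1 was nearest to Pex2 (distance 0.01), Dnajc24 (0.05) and Tmem199 (0.05). Eif2s3x was nearest to Iars, the isoleucyl-tRNA synthetase (0.03), Enoph1, an enzyme of methionine salvage (0.07), and Mis12, a kinetochore protein (0.08). Iars, with 168 and 187 normalised counts in the control libraries against 555 and 605, rose 3.25-fold. Eif5 was nearest to Tars, the threonyl-tRNA synthetase (0.44), Frrs1 (0.49) and Ccrn4l (0.54). For Tars the controls were 194 and 204 and the knockdowns 558 and 1037, so knockdown 2 was the highest library there as well. Rps3 was nearest to Snrpd1, a core protein of spliceosomal particles (0.20), Eef1b2, a subunit of the factor that reloads eEF1A with GTP (0.42), and Bccip (0.58). For Eef1b2 the controls were 543 and 1268 and the knockdowns 2395 and 1099, the same order of libraries as in Rps3, with groups that also overlapped. Over the 4 genes, knockdown 1 was thus the highest library for Eif1 and Rps3, and knockdown 2 for Eif5 and, narrowly, Eif2s3x.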

How the data were processed

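The file holds a signal that the authors deposited as normalised counts for 4878 genes in 4 libraries. Per the submitters' processing notes, the build was mm10 and the tools were STAR, HTSeq, DESeq2, cutadapt 1.8.3 and bcl2fastq 2.17.1.14. The sources used here do not give their roles, the scaling factors, or any use of molecular identifiers or strand. All values (100%) were whole multiples of 1 step per column within 0.01 read, and reads were recovered from these steps. Genes with a mean of at least 5 were tested (4605) on log2(value + 1) over all 4 libraries, without a block, using the trended variance prior of limma (3.58.1, under R 4.3.3); steps were tested on simulated data. The members and lists were chosen with earlier results of these data known. Named genes were the 4 members, up to 5 members of smallest p and every call of each list, and the 3 nearest genes per member; others named were chosen after their values were seen. Alternatives included edgeR 4.0.16 and DESeq2 1.42.0 on recovered reads. Counting intervals are exact (Poisson or binomial, 95%) and treat reads as independent molecules. Copies were found with BLAST 2.17.0. Positions and transcripts are from GENCODE M21 and promoters from RefSeq, where all 4 members matched. Without strand information, reads of antisense transcripts could not be separated.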

Additional observations from a re-analysis of the deposited data

How the results depend on the processing

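No direction reversed for Eif1, Eif5, Eif2s3x or Rps3 under the 16 settings tried. Leaving out a library gave log2 fold changes of 0.84 to 1.23 for Eif1, 1.15 to 2.66 for Eif5, 1.65 to 1.77 for Eif2s3x and 0.15 to 1.87 for Rps3. With no library left out, Rps3 passed at a pseudocount of 5 (1.00), with no filter (1.01) and at equal library totals (1.36). It also passed under quantile normalisation (1.20), in edgeR (1.17) and with the replicate number as a block (1.01, limma adjusted p = 0.0424). The block changed no call of the other 3 members, and Eif1b (0.0718) and Ddx3x (0.0512) lost theirs. Deviations of same-numbered libraries correlated at −0.13 over 4605 genes, so the numbers were not taken to pair libraries. A crossed pairing, added after seeing the data, gave 2045 calls in all against 1729 without a block and 1559 with the numbers as given. It called Rps3 (1.01) and 1 eIF3 subunit. With 2 libraries per group, the crossed correlation is the first one with its sign reversed (0.13). This pairing joins control 2 with knockdown 1, the higher library of each group for Rps3, so its calls carry no separate weight. Over all tested genes, calls numbered 1902 at equal totals, 1614 under quantile normalisation and 1156 without the trend. Calls among initiation factors were 12 at equal totals and 3 to 7 with a library left out. Among eIF3 subunits they were 4 at equal totals, 2 under quantile normalisation, 1 without the trend and 0 to 2 with a library left out, the 1 call without control replicate 1 being lower. Among small subunit proteins they were 2 without the trend and 3 to 7 with a library left out. With a library left out the log2 ratio differences ran from −0.049 to 1.79 for Eif5 to Eif1, −0.38 to 1.24 for Eif2s3x to Eif2s2 and −0.58 to 0.70 for Rps3 to the other small subunit genes. The lone library of a group was then assumed to vary like the others. The 9 to 13 control reads of Eif2s3x and Eif5 limit their folds.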

Other observations

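Rps3 had the widest spread between replicates of any gene at its level or above: its within-group SD of 1.06 on the log2 scale ranked 1 among 1198 tested genes with a mean log2 level of at least that of Rps3. The next ranks were taken by Rpl17 (1.06) and Rpl11 (0.93), proteins of the large ribosomal subunit, Ndrg1 (0.87) and Psma7 (0.87), a proteasome subunit; these 4 were named after their values were seen. Rpl17 had 139 and 476 normalised counts in controls 1 and 2 and 1179 and 528 in knockdowns 1 and 2, and Rpl11 had 853 and 2914 in controls and 3591 and 2428 in knockdowns. In both, as in Rps3, control 1 was the lowest library and knockdown 1 the highest, and control 2 was several times control 1. Eif3h, an eIF3 subunit also chosen after its values were seen, had 1027 and 3118 in controls and 1987 and 1470 in knockdowns.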
